A study of Mus musculus with 30 samples.

Results

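A group of 30 genes of sterol synthesis and its control, of 30205 genes measured, was followed through the differentiation of cultured mouse muscle cells. They were listed by their role in the pathway and comprise 7 enzymes of the mevalonate pathway (Acat2, Hmgcs1, Mvk, Pmvk, Mvd, Idi1, Fdps) and 11 enzymes that lead from farnesyl diphosphate through squalene to cholesterol (Fdft1, Sqle, Lss, Cyp51, Tm7sf2, Msmo1, Nsdhl, Hsd17b7, Ebp, Sc5d, Dhcr7). The others are 5 regulators (Insig1, Insig2, Scap, Srebf1, Srebf2), 4 fatty acid enzymes (Fasn, Scd1, Scd2, Acaca) and 3 sterol transport genes (Stard4, Abca1, Abcg1).

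The study compared culture surfaces for C2C12 cells, a mouse myoblast line that fuses into multinucleate myotubes, with primary myoblasts as a reference. RNA-seq was performed on 30 libraries in 10 groups of 3. The C2C12 groups were day 0 myoblasts and myotubes at day 4 and day 7 on plastic, on flat crosslinked gelatin (unpatterned) or on gelatin molded into narrow grooves (patterned). The primary groups were day 0 cells, labelled as grown on plastic, and cells on patterned gelatin at day 4 and day 7. C2C12 cells at day 0 were in medium with fetal bovine serum, and those at day 4 and day 7 had been moved to low-serum medium with horse serum, so that day and medium cannot be told apart. The primary myoblasts came from hindlimb muscle of 3 C57/Bl6J mice that were 8 weeks old. By the study's text they were grown before plating on dishes coated with matrix gel. Their basal medium there was another one, with more fetal serum and a fibroblast growth factor. Cell source, isolation, dish coating and early medium therefore cannot be told apart either. In primary cells the labelled surface also changed between day 0 and day 4, so that day, medium and surface cannot be told apart. A single C2C12 day 0 group, whose titles name no surface, served for all surfaces. Day and surface may thus not be told apart in those C2C12 comparisons with day 0 either. Cultures at day 4 and day 7 were briefly treated with trypsin to enrich myotubes. C2C12 is 1 line. The study's text describes C2C12 cells of more than 1 batch, the labels give no batch for a library, and batch was not examined here. The 3 libraries of a group were separate cultures by the study's text, which does not say whether those of a primary group came from separate mice, so that p-values measure the spread between cultures.

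Cholesterol is made in the endoplasmic reticulum from acetyl-CoA, by way of mevalonate, isoprenoids, squalene and lanosterol. The enzymes are controlled together by SREBP-2, the product of Srebf2, while SREBP-1, the product of Srebf1, acts more on fatty acid synthesis. When membrane sterol is low, SCAP escorts the SREBP precursors to the Golgi, where they are cut to release a transcription factor. When sterol is plentiful, INSIG proteins hold SCAP in the endoplasmic reticulum, and oxysterols activate the LXR receptors, which raise the cholesterol exporters ABCA1 and ABCG1. Insig1 is itself an SREBP target, so its mRNA is often read as a sign of the pathway's activity.

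Promoter sequences are shown because most members moved together between days. RefSeq promoter windows of the GRCm38.p6 build, each 250 bases before to 50 after a start, were found by symbol for 23 of the 30 members, in 31 windows, and not for Fdft1, Sqle, Fdps, Scd1, Scd2, Stard4 and Abcg1. The core of the sterol response element, TCACNCCAC on either strand, was in the window of 1 of the 23 members, Hmgcs1 (4.35%), against 1.44% of all genes with a window and 1.39% of those also tested in C2C12 cells. The letters CCAAT on either strand were in windows of 19 of 23 members (82.6%), against 41.1% of all genes with a window and 43.1% of those also tested in C2C12 cells. The letters GGGCGG were in windows of 20 of 23 members (87%), against 66.3% of the tested genes. These matches describe letters and not binding. Only the letters given were searched, so sterol response elements that depart from them were neither counted nor marked. A window without a match is thus not shown to lack such an element. The 250 bases before the start follow, 5′ to 3′, for Hmgcs1 and for 3 further members (Insig1, Cyp51 and Ebp) picked after their values were seen. Capitals mark the sterol response element core, which in Hmgcs1 is TCACCCCAC from base -137 to base -129 relative to the start, and CCAAT or its reverse complement ATTGG. The core and the CCAAT letters do not overlap.
Hmgcs1, the cytosolic HMG-CoA synthase, chr13:119690101-119690350, plus strand: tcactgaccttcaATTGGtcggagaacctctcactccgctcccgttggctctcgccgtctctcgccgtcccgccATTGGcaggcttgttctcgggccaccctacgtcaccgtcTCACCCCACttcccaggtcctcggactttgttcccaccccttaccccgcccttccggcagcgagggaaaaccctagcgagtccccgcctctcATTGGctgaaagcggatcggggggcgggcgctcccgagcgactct
Insig1, chr5:28071162-28071411, plus strand: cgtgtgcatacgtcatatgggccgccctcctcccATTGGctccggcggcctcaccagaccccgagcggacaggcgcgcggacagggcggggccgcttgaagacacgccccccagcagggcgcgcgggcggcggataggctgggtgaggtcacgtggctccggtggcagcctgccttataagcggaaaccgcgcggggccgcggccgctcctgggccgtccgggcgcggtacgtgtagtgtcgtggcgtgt
Cyp51, the lanosterol demethylase, chr5:4104698-4104947, minus strand: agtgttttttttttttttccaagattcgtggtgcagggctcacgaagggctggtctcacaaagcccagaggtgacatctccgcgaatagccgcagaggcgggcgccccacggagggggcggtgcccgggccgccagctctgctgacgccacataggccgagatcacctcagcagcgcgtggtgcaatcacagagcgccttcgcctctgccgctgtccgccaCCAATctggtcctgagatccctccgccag
Ebp, the sterol isomerase, chrX:8193513-8193762, minus strand: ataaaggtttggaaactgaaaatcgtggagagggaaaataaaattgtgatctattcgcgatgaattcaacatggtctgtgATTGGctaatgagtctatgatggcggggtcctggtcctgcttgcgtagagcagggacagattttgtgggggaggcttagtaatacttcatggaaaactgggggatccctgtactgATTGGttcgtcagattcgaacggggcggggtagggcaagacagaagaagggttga

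Each library held 13.1 to 59.4 M (mega) estimated counts, with a median of 27.3 M. Levels are given as CPM, counts scaled to a common library size with TMM factors over all 30 libraries, and differences as log2 fold changes with their standard error. A member was called when its Benjamini-Hochberg adjusted p over all genes tested, from edgeR's quasi-likelihood test, was under 0.05. The 9 myotube markers checked the days, since all of them rose between day 0 and day 4 in C2C12 cells and 8 of 9 rose in primary cells, while all 5 markers of dividing cells fell in both. Summed over the 5, dividing-cell markers went from 1645 to 1848 CPM at day 0 to 157 to 234 CPM at day 4 in C2C12 libraries. The sum of 5 myoblast markers did not fall between these days. In C2C12 libraries it was 1072 to 1276 CPM at day 0. At day 4 it was 1733 to 1741 CPM on plastic, 1612 to 1725 CPM on unpatterned and 1575 to 1820 CPM on patterned gelatin. In primary libraries it was 1552 to 1830 CPM at day 0 and 1532 to 2273 CPM at day 4, which overlap. The defining adipocyte markers Adipoq, Plin1, Cidec and Lep were at 0 or below 0.3 CPM in all 30 libraries, and the 7 adipocyte markers together reached at most 13.8 CPM in a C2C12 library and 5.32 CPM in a primary library. Leukocyte markers Adgre1 and Tyrobp were at or near 0. Some libraries stood apart. The C2C12 day 7 plastic replicate 3 was the highest of its group for 26 of 30 members and for 18 of 18 enzymes, and its Myh3 (embryonic myosin) level was 5179 CPM against 3082 and 3203. The primary libraries numbered 3 had lower muscle genes than the other primary libraries, with Ckm (muscle creatine kinase) at 69.2 CPM on day 4 against 220 and 305. The C2C12 day 7 patterned replicate 3 had the fewest counts of all libraries (13.1 M) and the largest share on transcripts that matched no gene (0.8925%). Its 6 fibroblast markers summed to 2906 CPM against 1815 and 1827 in the other libraries of its group, and its 5 endothelial markers to 18.5 CPM against 2.47 and 2.44, and their part in the day 7 results was not tested.

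The 30 members differed greatly in level, with Scd2 at the top and the cholesterol exporters at the bottom at day 0 in both cell sources. On the TPM scale, which corrects for transcript length, Scd2 was the highest member in C2C12 day 0 myoblasts at 432 ± 43.8 TPM (SD, n = 3). Fdps followed at 188 ± 19.1 TPM, and Scd1 at 153 ± 10.1 TPM, and the ranges of mean ± SD of these neighbours did not overlap. The lowest were the exporters Abca1 at 1.34 ± 0.13 TPM and Abcg1 at 1.28 ± 0.204 TPM, which lay within each other's spread. In primary day 0 cells Scd2 was again highest, at 111 ± 41.1 TPM, and Abca1 and Abcg1 were again lowest, at 0.755 ± 0.574 and 0.155 ± 0.168 TPM. Scd1 and Scd2 encode close relatives of the stearoyl-CoA desaturase and share sequence, so the division of reads between them, as between Acat2 and its near copy Acat3, is uncertain.

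**Figure D1:**
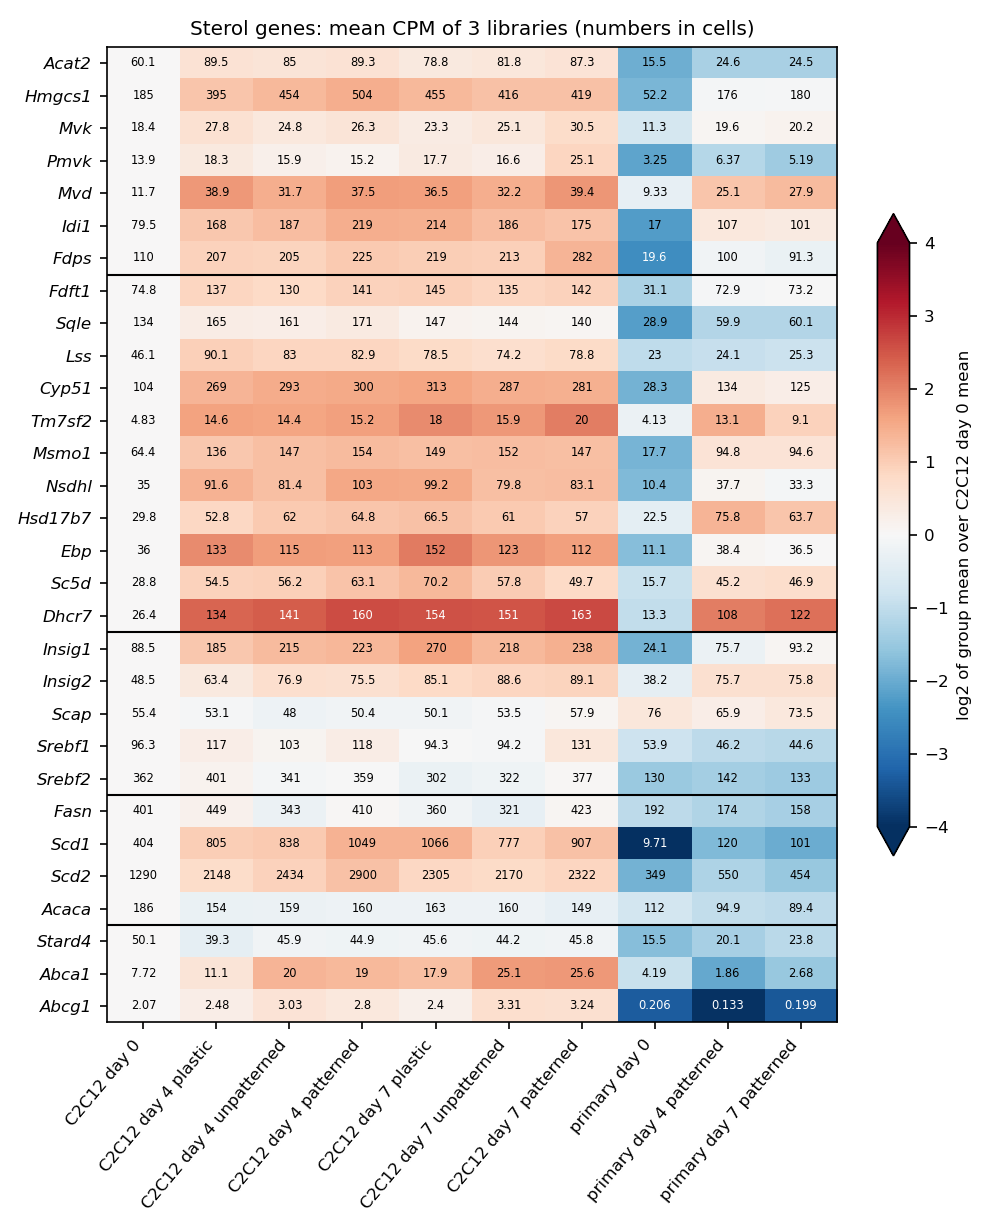
Mean CPM of the 3 libraries of each group for the 30 members, one row a gene in blocks by role (mevalonate, squalene to cholesterol, regulators, fatty acid enzymes, transport) and one column a group. Color is the log2 ratio of the group mean to the C2C12 day 0 mean, and the columns of C2C12 myotubes are above that mean for all 18 enzymes while the primary day 0 column is below it for all members but Scap.

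Summed over the 18 sterol enzymes, every myotube library lay above every myoblast library of the same cell source. The sum was 1042 to 1074 CPM in the day 0 libraries, and 2160 to 2276 CPM on plastic, 2260 to 2324 CPM on unpatterned gelatin and 2327 to 2596 CPM on patterned gelatin at day 4. Day 7 sums were 2177 to 2873 CPM on plastic, 2152 to 2401 CPM on unpatterned and 2234 to 2486 CPM on patterned gelatin. In primary cells the sum was 302 to 388 CPM at day 0, 1041 to 1327 CPM at day 4 and 973 to 1284 CPM at day 7. In these bulk cultures, fewer cells that express a gene and less of its RNA per cell cannot be told apart.

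Between day 0 and day 4 on plastic, 22 of 30 members rose and 2 fell in C2C12 cells, where 58% of 14844 genes tested were called in either direction (30.2% higher and 27.7% lower). The median log2 fold change was 0.84 over the members and 0.00 over all genes. On patterned gelatin 22 rose and 1 fell, against 60.1% of all genes called (30.9% higher and 29.3% lower), with a median of 1.08 over the members and -0.02 over all genes. The plastic and patterned comparisons share the 3 day 0 libraries. The 6 members without a call on plastic were Pmvk, Scap, Srebf1, Srebf2, Fasn and Abcg1.

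Of the 7 mevalonate enzymes, 6 rose on both surfaces. Hmgcs1, which condenses acetyl-CoA with acetoacetyl-CoA, was at 193, 181 and 180 CPM on day 0 and at 382, 387 and 417 CPM on plastic at day 4. The groups did not overlap, and the difference was 1.09 ± 0.09 (adjusted p = 3.27e-09). Mvd, the decarboxylase that makes isopentenyl diphosphate, rose the most of the 7, from 10.5, 12.4 and 12.3 CPM to 36.0, 40.3 and 40.4 CPM (1.72 ± 0.12, adjusted p = 3.63e-10). Idi1, which interconverts the isoprene units, rose by 1.08 ± 0.13 and Fdps, which joins them to farnesyl diphosphate, by 0.92 ± 0.16. Acat2, the cytosolic thiolase that makes acetoacetyl-CoA, and Mvk, the mevalonate kinase, rose less, by 0.57 ± 0.11 and 0.59 ± 0.11. Pmvk, the phosphomevalonate kinase, was at 13.7, 12.7 and 15.4 CPM on day 0 and 17.6, 18.2 and 19.0 CPM on plastic. Those groups did not overlap, but the difference of 0.39 ± 0.19 missed the threshold (adjusted p = 0.0785). In a fit of only the 2 groups compared the same difference had a standard error of 0.08 and was called (adjusted p = 0.00173).

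All 11 enzymes from squalene synthase to the last reductase rose on both surfaces. Dhcr7, which makes cholesterol from its 7-dehydro precursor, had the largest rise of any member in C2C12 cells. It was at 25.1, 27.8 and 26.2 CPM on day 0, at 130, 139 and 132 CPM on plastic and at 156, 173 and 150 CPM on patterned gelatin. No day 4 library was near a day 0 library, and the differences were 2.34 ± 0.10 (adjusted p = 2.87e-13) and 2.60 ± 0.10 (adjusted p = 6.01e-14). Ebp, the sterol isomerase, followed on plastic at 1.88 ± 0.08, from 34.5 to 36.7 CPM to 127 to 139 CPM. Tm7sf2, a sterol reductase, rose by 1.59 ± 0.17, Nsdhl, a sterol dehydrogenase, by 1.38 ± 0.13, and Cyp51 by 1.36 ± 0.07. Msmo1, the methylsterol oxidase, rose by 1.07 ± 0.09, Lss, the lanosterol synthase, by 0.96 ± 0.09 and Sc5d, the lathosterol desaturase, by 0.92 ± 0.15. Fdft1, the squalene synthase, rose by 0.87 ± 0.08 and Hsd17b7, a sterol ketone reductase, by 0.82 ± 0.12. Sqle, the squalene epoxidase and a control point of the pathway, rose the least. It was at 133, 135 and 133 CPM on day 0 and 155, 175 and 164 CPM on plastic, so that the groups did not overlap but differed by only 0.29 ± 0.08 (adjusted p = 0.00234).

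Among the regulators, both INSIG genes rose while the SREBP genes and Scap did not pass the test. Insig1 was at 83.8, 94.4 and 87.2 CPM on day 0 and at 182, 175 and 197 CPM on plastic (1.06 ± 0.12, adjusted p = 1.92e-07). Insig2, which is not driven by SREBP in the same way, rose by 0.38 ± 0.07 on plastic and 0.64 ± 0.07 on patterned gelatin. Srebf2 was at 329, 382 and 375 CPM on day 0 and at 385, 426 and 391 CPM on plastic (0.14 ± 0.09, adjusted p = 0.21), and at 328, 389 and 360 CPM on patterned gelatin (-0.01 ± 0.09, adjusted p = 0.925). The values on patterned gelatin lay across those of day 0. Srebf1 differed by 0.27 ± 0.15 on plastic (adjusted p = 0.123) and 0.29 ± 0.15 on patterned gelatin (adjusted p = 0.0928). In fits of only the 2 groups compared Srebf1 was called in both, at adjusted p of 0.0201 and 0.0274. Scap differed by -0.07 ± 0.10 on plastic (adjusted p = 0.577).

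The fatty acid enzymes did not move as a block. Scd1, which introduces the double bond into stearate, rose from 388, 409 and 414 CPM to 799, 749 and 866 CPM on plastic (0.99 ± 0.18, adjusted p = 7.23e-05), and Scd2 from 1241, 1355 and 1275 CPM to 2014, 2233 and 2197 CPM (0.73 ± 0.15, adjusted p = 0.000283). Fasn, the fatty acid synthase, was at 361 to 447 CPM on day 0 and 423 to 472 CPM on plastic, which overlap (0.16 ± 0.15, adjusted p = 0.408). Acaca, which makes the malonyl-CoA that fatty acid synthase uses, fell by 0.28 ± 0.07 on the log2 scale on plastic (adjusted p = 0.00322), and its difference on patterned gelatin was -0.21 ± 0.07 (adjusted p = 0.0194). That last call was lost without the day 0 replicate 1 or 2 or the day 4 patterned replicate 2 or 3, with adjusted p up to 0.0828.

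The transport genes differed from one another. Abca1, the exporter of cholesterol to lipid-poor apolipoproteins, was at 8.39, 6.62 and 8.14 CPM on day 0 and rose to 10.7, 9.77 and 12.9 CPM on plastic (0.54 ± 0.12, adjusted p = 0.000854) and to 18.7, 18.4 and 20 CPM on patterned gelatin (1.31 ± 0.12, adjusted p = 1.49e-08). Stard4, which moves cholesterol between membranes and is an SREBP target, fell from 52.7, 51.8 and 45.8 CPM to 37.2, 40.6 and 40.2 CPM on plastic (-0.35 ± 0.11, adjusted p = 0.0114). Without the day 4 plastic replicate 1 its adjusted p was 0.0531, and on patterned gelatin the difference was -0.16 ± 0.11 (adjusted p = 0.234). Abcg1 stayed low, at 1.66 to 2.36 CPM on day 0 and 2.30 to 2.78 CPM on plastic.

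**Figure D2:**
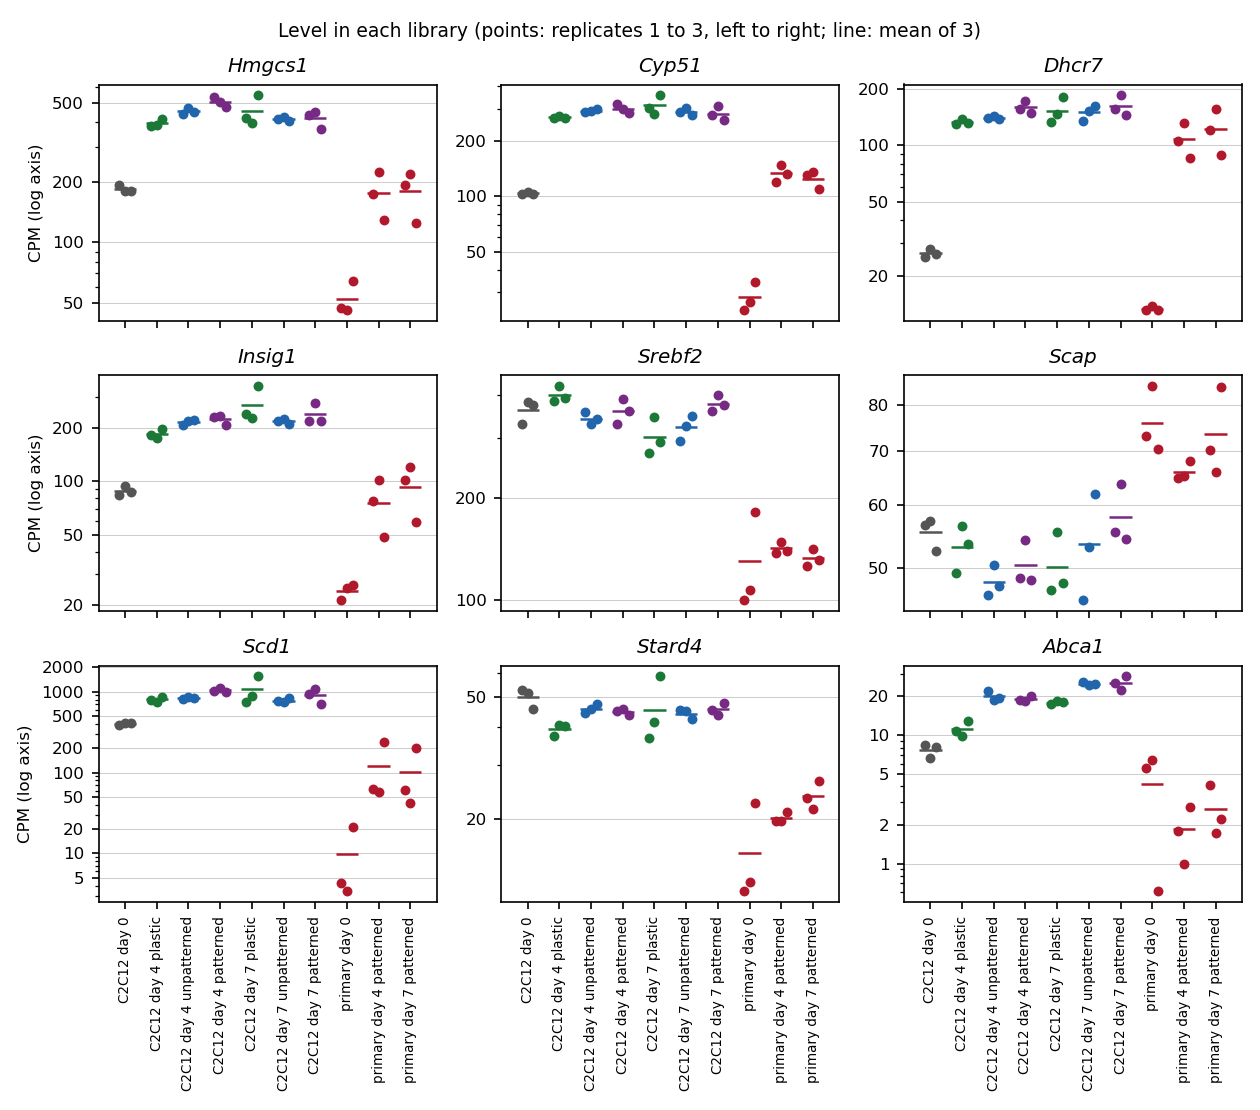
CPM of 9 members in every library on log axes, 1 panel a gene and 1 column a group, with points for replicates 1 to 3 from left to right and a line at their mean. Dhcr7 lay at 25.1 to 27.8 CPM in C2C12 day 0 libraries and at 130 CPM or more in all C2C12 myotube libraries.

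The enzymes also rose in primary cells, from lower levels. Between day 0 and day 4, 20 of 29 members tested rose and none fell, where 42.6% of 14352 genes were called (20.2% higher and 22.4% lower), and the median was 1.19 over the members and -0.04 over all genes. Abcg1 was too low to be tested, at 0 to 0.374 CPM. At an unadjusted p under 0.05, 21 of the 29 members differed. All 7 mevalonate enzymes and 10 of the 11 later enzymes rose. Dhcr7 was at 13.1, 13.8 and 13.1 CPM on day 0 and at 106, 132 and 85.7 CPM on day 4 (2.97 ± 0.23, adjusted p = 4.35e-05), groups far apart although the day 4 libraries spread more than those of C2C12 cells. Idi1 rose by 2.60 ± 0.21, Msmo1 by 2.37 ± 0.24, Fdps by 2.31 ± 0.18 and Cyp51 by 2.20 ± 0.15. Lss was the enzyme without a call, at 23.5, 20.9 and 24.5 CPM on day 0 and 27.2, 28.0 and 17.1 CPM on day 4, which overlap (0.02 ± 0.21, adjusted p = 0.943).

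Among the regulators in primary cells, Insig1 rose by 1.60 ± 0.31 and Insig2 by 0.94 ± 0.13. Srebf2, at 99.8, 107 and 182 CPM on day 0 and 138, 148 and 139 CPM on day 4, did not pass the test (0.09 ± 0.20, adjusted p = 0.738). The high day 0 value was the library numbered 3, and without the libraries of that number the difference in Srebf2 was 0.43 ± 0.10 (adjusted p = 0.00799). Scd1 rose from 4.32, 3.43 and 21.4 CPM to 63.2, 57.6 and 239 CPM (3.62 ± 0.97, adjusted p = 0.0159), with the library numbered 3 highest on both days. Without the libraries of that number the Scd1 difference was 3.92 (adjusted p = 2.21e-06), and it ran from 2.61 to 4.89 with 1 library left out at a time. Abca1 was at 5.58, 6.38 and 0.612 CPM on day 0 and 1.80, 0.989 and 2.78 CPM on day 4. Those values overlapped only through the low day 0 library of that number, and the difference of -1.24 ± 0.77 (adjusted p = 0.232) became -2.14 ± 0.44 (adjusted p = 0.00351) without number 3.

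Leaving out the primary libraries numbered 3 at every day, an alternative chosen after seeing the data, gave 23 members that rose and 3 that fell (Abca1, Acaca and Scap). Same-numbered primary libraries deviated together. With the replicate number as a block 22 members were called, Acaca at -0.29 ± 0.09 (adjusted p = 0.0239) and Scd2 at 0.66 ± 0.18 (adjusted p = 0.0168) being added. Calls of Acat2, Pmvk, Ebp and Scd1 depended on single libraries. Acat2 was lost without the day 4 replicate 2, Ebp and Scd1 without the day 0 replicate 1 or 2, and Pmvk without any day 0 library or the day 4 replicate 1 or 2, with adjusted p of up to 0.0586, 0.0514, 0.0598 and 0.12 in that order.

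**Figure D3:**
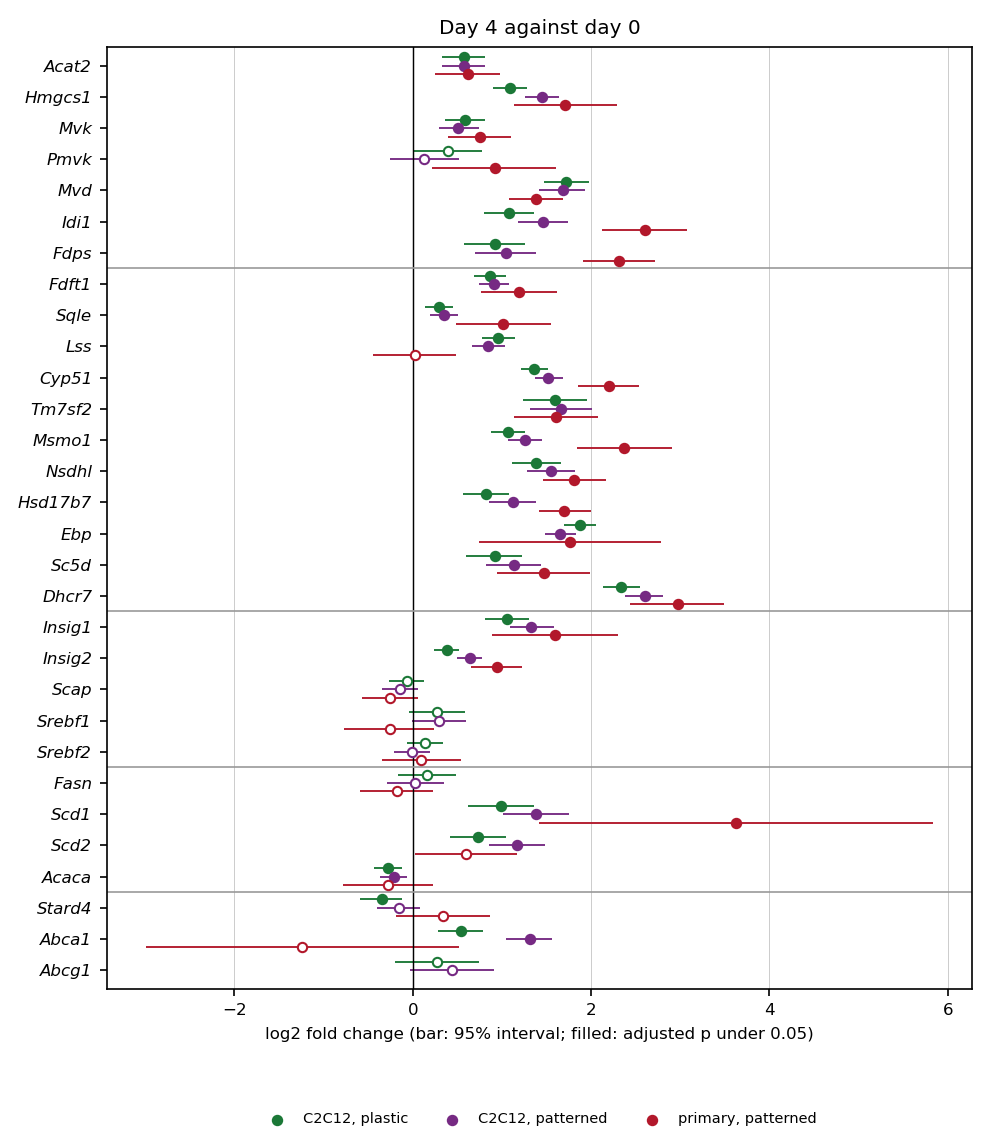
Log2 fold change of each member between day 0 and day 4 in C2C12 cells on plastic, C2C12 cells on patterned gelatin and primary cells on patterned gelatin, with 95% intervals, filled where the adjusted p was under 0.05. Points of the sterol enzymes lie to the right of 0 and those of Scap, Srebf1, Srebf2 and Fasn around it. Those of Acaca lie to the left of 0 and are filled in C2C12 cells on both surfaces. The widest intervals are those of Scd1 and Abca1 in primary cells.

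The rise from day 0 to day 4 on patterned gelatin was compared between the cell sources in a single fit of all 30 libraries. The primary day 0 cells were labelled as grown on plastic, so that their surface changed with the day. The titles of the C2C12 day 0 group name no surface, so the same may hold there. It differed for 10 of 30 members, being higher in primary cells for 8 and lower for 2, where 20.5% of 15447 genes were called (9.87% higher and 10.6% lower). Members with a larger rise in primary cells were Scd1 (difference of log2 fold changes 2.25 ± 0.79), Fdps (1.32 ± 0.25), Idi1 (1.19 ± 0.24), Msmo1 (1.16 ± 0.23), Cyp51 (0.72 ± 0.16), Sqle (0.70 ± 0.23), Hsd17b7 (0.63 ± 0.19) and Insig2 (0.35 ± 0.12). Lss (-0.78 ± 0.21) and Abca1 (-2.48 ± 0.59) were lower. In C2C12 cells Lss was at 44.8, 50.8 and 42.7 CPM on day 0 and 85.0, 87.4 and 76.2 CPM on patterned gelatin, groups that did not overlap as those of the primary cells did. The adjusted p of the called members ran up to 0.0441 (Insig2) and 0.0436 (Scd1), and those calls were lost without 10 and 9 of the 12 libraries, each left out alone. Of the markers, the difference of log2 fold changes was lower in primary cells for 3 of 9 myotube genes and higher for 2 of 5 fibroblast genes. The sum of the 6 fibroblast markers nevertheless fell in primary cells, from 553 to 581 CPM at day 0 to 33.7 to 277 CPM at day 4. In C2C12 cells it was 1614 to 1818 CPM at day 0 and 1294 to 1500 CPM on patterned gelatin at day 4. The part of these markers in the result was not tested. The count was 18 without the primary libraries numbered 3, with 15 higher and 3 lower, and 6 without the C2C12 day 4 patterned replicate 1. With the replicate block 13 were called, Pmvk, Stard4 and Srebf1 being added at adjusted p of 0.0231, 0.0317 and 0.0275.

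From day 4 to day 7 few members changed. On plastic 4 rose and 1 fell, against 14.8% of all genes called (6.47% higher and 8.37% lower), a share near that of the members. These were Abca1 (0.69 ± 0.12, adjusted p = 0.000822), Insig1 (0.56 ± 0.11, adjusted p = 0.00338), Insig2 (0.44 ± 0.07, adjusted p = 0.000346) and Cyp51 (0.23 ± 0.07, adjusted p = 0.0349), and Srebf2, which fell by 0.40 ± 0.09 on the log2 scale (adjusted p = 0.00928). Abca1 was at 17.4, 18.3 and 18 CPM on day 7, above all 3 day 4 plastic libraries. Insig1 was at 238, 226 and 345 CPM, and its highest value is that of the replicate 3 described above. Without that library its difference was 0.36 (adjusted p = 0.0117). Cyp51 lost its call without 5 of the 6 libraries, each left out alone (adjusted p up to 0.157), and Srebf2 without the day 4 replicate 2 or the day 7 replicate 1 (up to 0.0579). The number called was 3 without the day 4 plastic replicate 2 and 10 without the day 7 plastic replicate 2.

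On unpatterned gelatin no member was called between day 4 and day 7, where 2.92% of all genes were (1.62% higher and 1.31% lower). DESeq2 also called none, 2 members had an unadjusted p under 0.05, and the 95% intervals of the members ran from -0.47 to 0.58. On patterned gelatin 3 rose and 2 fell, against 20.3% of genes called (11.3% higher and 9.03% lower), a share near that of the members. Pmvk rose from 16.6, 13.9 and 15.1 CPM to 19.7, 23.5 and 32.1 CPM (0.70 ± 0.19, adjusted p = 0.0164), Abca1 by 0.41 ± 0.11 (adjusted p = 0.0206) and Insig2 by 0.22 ± 0.07 (adjusted p = 0.0271). Sqle (-0.31 ± 0.08, adjusted p = 0.0106) and Hmgcs1 (-0.29 ± 0.09, adjusted p = 0.0308) fell. The count was 3, 1 and 2 without the day 4 patterned replicate 1, 2 or 3 and 2 without the day 7 patterned replicate 3, and without the last Pmvk (0.44, adjusted p = 0.104), Abca1 (0.28, adjusted p = 0.114) and Hmgcs1 (-0.25, adjusted p = 0.101) were not called. Only the call of Sqle held whichever library was left out. In primary cells no member and no gene at all was called between these days (0% of 14352 genes). DESeq2 called 43 genes but no member. An unadjusted p under 0.05 was found for 1 member, and the intervals of the members ran from -2.23 to 2.29. No member was called for a different change between the cell sources, where 0.77% of genes were, although with the replicate block Tm7sf2 (-0.92 ± 0.23, adjusted p = 0.0281) and Pmvk (-1.01 ± 0.26, adjusted p = 0.0345) passed the threshold. DESeq2 called 1 member for that difference, 2 had an unadjusted p under 0.05, and 1 was called without the C2C12 day 7 patterned replicate 1.

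Fewer members were called between surfaces than between day 0 and day 4. At day 4, 2 members were higher on unpatterned gelatin than on plastic. Of all genes 7.89% were called there (4.02% higher and 3.87% lower), a share near that of the members. On patterned gelatin 3 were higher, where 3.55% of genes were called (2.1% higher and 1.46% lower). Abca1 had the largest difference in both. It was at 10.7, 9.77 and 12.9 CPM on plastic, 21.9, 18.8 and 19.3 CPM on unpatterned and 18.7, 18.4 and 20 CPM on patterned gelatin. The gelatin libraries overlapped with each other and not with plastic, and the differences were 0.83 ± 0.12 (adjusted p = 0.000691) and 0.77 ± 0.12 (adjusted p = 0.00165), calls that held whichever 1 library was left out. Insig2 was higher on both gelatins, by 0.27 ± 0.07 (adjusted p = 0.02) and 0.25 ± 0.07 (adjusted p = 0.0382). Hmgcs1 was at 382, 387 and 417 CPM on plastic and 532, 505 and 476 CPM on patterned gelatin (0.35 ± 0.09, adjusted p = 0.0335). Its values on unpatterned gelatin lay between, at 440, 473 and 450 CPM (0.19 ± 0.09, adjusted p = 0.196).

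These day 4 calls other than Abca1 were close to the threshold. Leaving out any 1 of the 6 libraries of the patterned comparison left 1 called member, Abca1, with adjusted p of up to 0.141 for Hmgcs1 and 0.177 for Insig2. In the unpatterned comparison Insig2 was lost without the plastic replicate 2 or 3 or the unpatterned replicate 2 or 3, with adjusted p of up to 0.0882. Fits of only the 2 groups compared called 13 members for patterned and 11 for unpatterned gelatin. Between patterned and unpatterned gelatin no member was called, where 1 gene of 14844 (0.00674%) was. DESeq2 called 142 genes but no member, 2 members had an unadjusted p under 0.05, and the intervals of the members ran from -0.56 to 0.70.

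At day 7 Abca1 was again higher on gelatin. It was at 17.4, 18.3 and 18 CPM on plastic, at 25.7, 24.7 and 24.9 CPM on unpatterned and at 25.6, 22.3 and 28.7 CPM on patterned gelatin, with no overlap with plastic (0.47 ± 0.11, adjusted p = 0.0291, and 0.49 ± 0.12, adjusted p = 0.00837). On unpatterned gelatin the only other call was Ebp, which was lower (-0.33 ± 0.08, adjusted p = 0.0332), where 3.46% of genes were called (2.49% higher and 0.977% lower). The Abca1 call on unpatterned gelatin was lost without any 1 of the 6 libraries, with adjusted p of up to 0.0812. That of Ebp was lost without the replicates 1 or 3 of either group, with adjusted p of up to 0.116.

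On patterned gelatin at day 7, 4 members were higher than on plastic and 2 lower. Of all genes 23.8% were called (12.9% higher and 10.9% lower), a share near that of the members. Besides Abca1, the higher members were Srebf1 at 109, 139 and 145 CPM against 72.9, 96.4 and 114 CPM (0.45 ± 0.15, adjusted p = 0.0361), Mvk (0.36 ± 0.11, adjusted p = 0.0236) and Srebf2 at 358, 400 and 374 CPM against 270, 344 and 292 CPM (0.29 ± 0.09, adjusted p = 0.0329). The Srebf2 groups did not overlap and the Srebf1 groups did. Ebp was lower, at 107, 122 and 107 CPM against 146, 135 and 174 CPM (-0.46 ± 0.08, adjusted p = 0.00199), and so was Sc5d (-0.53 ± 0.15, adjusted p = 0.0181). Of the 18 enzymes, Mvk was thus higher, Ebp and Sc5d were lower and the rest did not pass, Hmgcs1 for example at -0.15 ± 0.09 (adjusted p = 0.235). The calls of Srebf1, Srebf2, Mvk and Sc5d were each lost without some single library, with adjusted p up to 0.178, 0.158, 0.119 and 0.0725, and the count fell to 2 without the day 7 patterned replicate 3. In a fit of only the 2 groups none of the 6 was called (adjusted p from 0.173 to 0.247). Without the day 7 plastic replicate 3, the library with the highest enzymes, Sc5d and Srebf2 were not called. The myotube markers also differed in this comparison, 3 of 9 being higher on patterned gelatin, while 3 of 5 dividing-cell markers were lower and 3 of 4 fibroblast markers tested were higher. Their part in the result was not tested. Between patterned and unpatterned gelatin at day 7 no member was called, where 0.546% of genes were. DESeq2 called no member, 7 members had an unadjusted p under 0.05, 2 were called without the day 7 patterned replicate 1, and the intervals ran from -0.54 to 0.97.

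**Figure D4:**
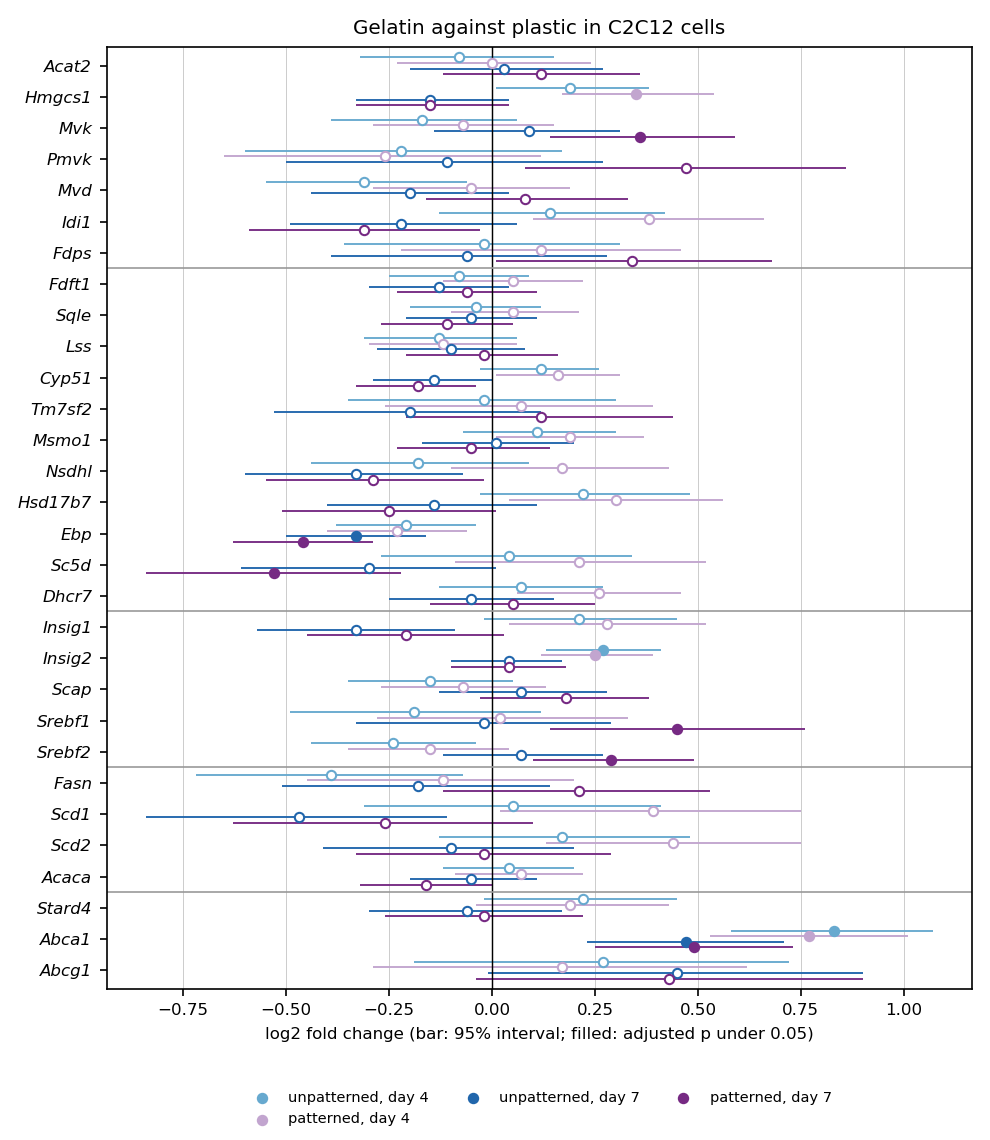
Log2 fold change of each member on unpatterned or patterned gelatin against plastic in C2C12 cells at day 4 and day 7, with 95% intervals, filled where the adjusted p was under 0.05. Abca1 is filled in all 4 comparisons and lies between 0.47 and 0.83, while the other filled points are Hmgcs1, Insig2, Mvk, Ebp, Sc5d, Srebf1 and Srebf2.

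The difference between patterned gelatin and plastic itself differed between the days for 6 of 30 members, where 11.7% of genes were called (6.24% higher and 5.5% lower). It was lower at day 7 for Hmgcs1 (-0.50 ± 0.13), Idi1 (-0.69 ± 0.19), Cyp51 (-0.34 ± 0.10), Hsd17b7 (-0.55 ± 0.17) and Sc5d (-0.74 ± 0.21), all enzymes, and higher for Srebf2 (0.45 ± 0.13). Idi1, for example, was at 171, 159 and 175 CPM on plastic and 220, 231 and 205 CPM on patterned gelatin at day 4. At day 7 it was at 200, 175 and 266 CPM and 202, 149 and 173 CPM, so the groups lay apart at day 4 and overlapped at day 7. The count was 0 without the day 4 plastic replicate 1 or 2 or the day 4 patterned replicate 1 or 3. It was 3 without the day 4 plastic replicate 3, the day 4 patterned replicate 2 or the day 7 patterned replicate 3, and 1 without the day 7 plastic replicate 3. For unpatterned gelatin no member and no gene (0%) was called for a difference between the days. DESeq2 called 18 genes but no member, 8 members had an unadjusted p under 0.05, and the intervals ran from -1.04 to 0.83.

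Most members had lower levels in primary than in C2C12 cells. At day 0, 27 of 30 members were lower and 1 was higher, where 57.5% of 15447 genes were called (29.6% higher and 27.9% lower), and the median was -1.59 over the members and -0.01 over all genes. Scap was the higher member, at 73.1, 84.5 and 70.5 CPM against 56.5, 57.2 and 52.5 CPM (0.46 ± 0.11, adjusted p = 0.000902). Tm7sf2 (-0.22 ± 0.19) and Abca1 (-0.87 ± 0.41) did not pass the test. The largest difference was that of Scd1, at 4.32, 3.43 and 21.4 CPM against 388, 409 and 414 CPM (-5.38 ± 0.66, adjusted p = 2.08e-07). Fdps was at 15.7, 17.1 and 25.9 CPM against 98.6, 113 and 117 CPM (-2.49 ± 0.19). Srebf2 differed by -1.48 ± 0.15, Acat2 by -1.95 ± 0.14 and Stard4 by -1.69 ± 0.17, while Mvd was among the nearest, at -0.33 ± 0.13 (adjusted p = 0.0291). Hsd17b7 (-0.41 ± 0.14) lost its call without the C2C12 day 0 replicate 1 or the primary replicate 3, and Mvd without the C2C12 replicate 2 or 3 or the primary replicate 1.

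At day 4 on patterned gelatin, 26 members were lower in primary cells and Scap was higher (0.39 ± 0.11), where 50.6% of genes were called (25.7% higher and 25% lower), and the members' median was -1.20. At day 7, 27 were lower and Scap was higher (0.34 ± 0.11), where 51.5% of genes were called (25% higher and 26.4% lower), with a median of -1.22. Dhcr7 was at 106, 132 and 85.7 CPM in primary and 156, 173 and 150 CPM in C2C12 cells at day 4 (-0.57 ± 0.16, adjusted p = 0.004), and the groups at day 7, with 121, 156 and 88.5 CPM against 157, 186 and 145 CPM, overlapped (-0.42 ± 0.16, adjusted p = 0.0272). Hsd17b7 was not called at either day, at 73.1, 88.9 and 65.5 CPM against 64.5, 69.1 and 60.9 CPM at day 4 (0.23 ± 0.13). Scd1 differed by -3.13 ± 0.59 at day 4 and -3.17 ± 0.59 at day 7. Abca1 was at 1.80, 0.989 and 2.78 CPM against 18.7, 18.4 and 20 CPM at day 4 (-3.36 ± 0.45, adjusted p = 1.04e-06). Abcg1 was at 0 to 0.24 CPM against 1.98 to 3.24 CPM (-4.35 ± 0.49), a value that rests on 11 counts or fewer in any primary library.

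Without the primary libraries numbered 3, 28 members were called at day 0, 27 at day 4 and 27 at day 7, and the Scd1 difference was -6.68, -4.10 and -4.10. At day 4 Sc5d was lost (-0.30 ± 0.17, adjusted p = 0.132) and Hsd17b7 became higher in primary cells (0.33 ± 0.14, adjusted p = 0.0449), and at day 7 Dhcr7 was lost (-0.20 ± 0.12, adjusted p = 0.169). With the replicate block Insig2 at day 7 was lost (-0.21 ± 0.10, adjusted p = 0.0736). Single libraries also decided Sc5d at day 4 and Insig2 and Dhcr7 at day 7, the adjusted p reaching 0.203, 0.257 and 0.299 without one of them. The ratio of Scd2 to Scd1, on the TPM scale, was 1.74 to 2.92 in every C2C12 library. In primary cells it was 77.9, 114 and 9.17 at day 0 and 7.38, 9.20 and 1.92 at day 4, so that Scd2 was by far the main desaturase of the day 0 libraries numbered 1 and 2. Dividing-cell markers were lower in primary cells, 5 of 5 at each day, and at day 0 the myotube markers were higher for 6 of 9. Fibroblast markers differed in the same direction as the members, 4 of the 5 tested being lower in primary cells at each day. The 6 markers summed to 1294 to 1500 CPM in C2C12 and 33.7 to 277 CPM in primary libraries on patterned gelatin at day 4. Their part in the result was not tested.

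**Figure D5:**
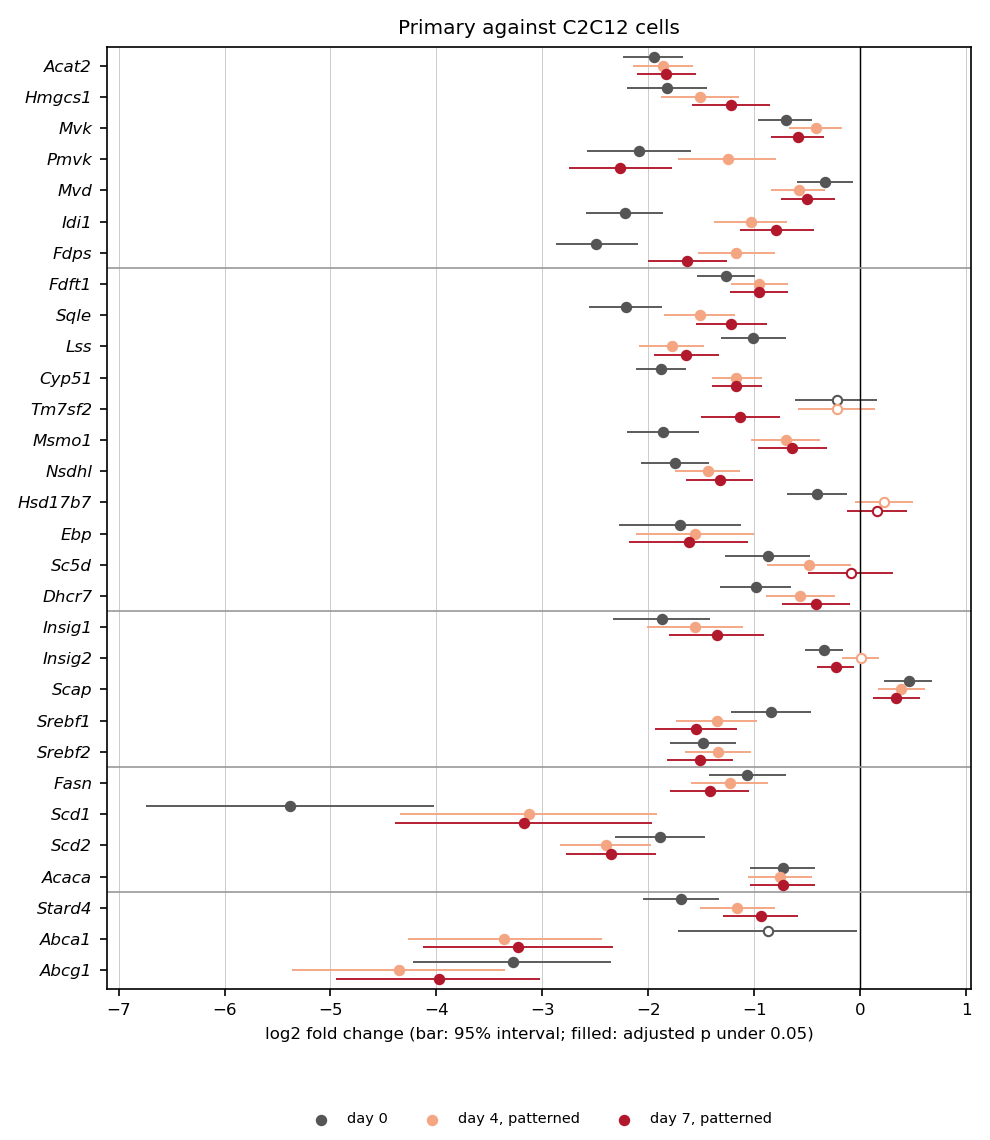
Log2 fold change of each member in primary against C2C12 cells at day 0, and at day 4 and day 7 on patterned gelatin, with 95% intervals, filled where the adjusted p was under 0.05. Scap lies to the right of 0 at each day. Scd1 lies farthest to the left at day 0 (-5.38), and Abcg1 does at day 4 (-4.35), followed by Abca1 and Scd1.

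Genes next to the pathway moved in both directions. Of 20 genes of cholesterol transport and storage, 8 rose and 7 fell between day 0 and day 4 in C2C12 cells on plastic, with a median of 0.04. Of all genes tested in that comparison, 30.2% rose and 27.7% fell with a median of 0.00, and this background holds for the counts of each neighbouring list. Lrp8, a lipoprotein receptor, fell by 1.90 ± 0.13 on the log2 scale, while Abca2 rose by 1.73 ± 0.14 and Osbpl5 by 0.91 ± 0.07. Of 18 further genes of fatty acid synthesis, elongation and desaturation, 9 rose and 5 fell, with a median of 0.30. Acss2, which makes acetyl-CoA from acetate and is an SREBP target, rose by 1.69 ± 0.13, and the fatty acyl-CoA ligase Acsl3 by 1.37 ± 0.09. In primary cells these 2 rose by 2.45 ± 0.18 and 1.92 ± 0.17.

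The isoprenoid branch, which uses farnesyl diphosphate for dolichol, ubiquinone and protein prenylation, had 6 of 14 genes that rose and 3 that fell, with a median of 0.26. Dhdds, the dolichol chain synthase, rose by 0.75 ± 0.07 and Pdss1, of ubiquinone synthesis, fell by 0.88 ± 0.13 on the log2 scale. Of 12 genes of SREBP processing and sterol sensing, 6 rose and 3 fell. Mbtps1, the site-1 protease that cuts SREBP, fell by 0.52 ± 0.07 in C2C12 cells on plastic and by 0.91 ± 0.11 in primary cells. Of 9 LXR receptors and targets tested, 4 rose and 1 fell, with Mylip at 0.74 ± 0.08 and Lpcat3 at 0.90 ± 0.10, while Arl4c was at -1.78 ± 0.12. The lipoprotein receptor Vldlr was higher on patterned gelatin than on plastic at day 4 (0.59 ± 0.11, adjusted p = 0.00679) and at day 7 (0.57 ± 0.11, adjusted p = 0.00298).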

How the data were processed

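RNA-seq was performed on 30 libraries, 21 from C2C12 cells and 9 from primary cells, in 10 groups of 3. Per the labels, the authors quantified reads with kallisto against mm10, and deposited estimated counts and TPM for each of 88198 transcripts. Which kallisto version and annotation they used is not given in the sources used here. Transcripts were matched to GENCODE M21 (86031 of them, the rest holding 0.7226% to 0.8925% of the counts of a library), and the estimated counts were summed over the transcripts of each of 30205 genes and rounded to whole numbers. The authors' TPM values were summed in the same way. Kallisto divides reads that fit several transcripts, so the levels of near-identical genes are uncertain.

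Differences were tested with edgeR 4.0.16 in R 4.3.3 (TMM factors, its filter on low counts, quasi-likelihood fit and test), with Benjamini-Hochberg adjustment over all genes tested and a threshold of 0.05. C2C12 comparisons used 1 fit of 21 libraries (14844 genes), primary comparisons 1 fit of 9 (14352 genes), and comparisons between cell sources 1 fit of 30 (15447 genes). The groups share 1 estimate of the spread within a fit, although the spread of the members differed between groups. In C2C12 cells the members' median SD, as a percent of the mean, was 3.99% to 6.78% in the day 4 groups. At day 7 it was 17.2% on plastic, 8.27% on unpatterned and 10.9% on patterned gelatin. The procedure was also run on simulated counts, in which far fewer genes changed than were called in the comparisons they imitated. No result given here rests on that run. Among genes above 100 counts in either library of a pair, no 2 libraries had equal counts at more than 0.63%, over 435 pairs. Replicate numbers of the labels paired the primary libraries, since same-numbered libraries deviated together in all 9 pairs (r from 0.236 to 0.84, median 0.504), with no source for the pairing other than the numbers.

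Alternatives were RLE factors, DESeq2 1.42.0, no filter on low counts, limma 3.58.1 on log2(TPM + 1), only the groups compared, the replicate number as a block and leaving out each library. Leaving out the primary libraries numbered 3 was added after seeing the data. Any member could be named, and of each neighbouring list up to 4 called genes with the smallest adjusted p in a comparison. The members and lists were chosen with earlier results of these data known. Promoter windows came from RefSeq (GRCm38.p6).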

Additional observations from a re-analysis of the deposited data

Results flagged for a closer look

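A set of differences of a difference passed the test, each given as a log2 value with no explanation. The change from day 0 to day 4 on patterned gelatin, primary minus C2C12 cells, differed for Idi1 (1.19), Fdps (1.32), Sqle (0.70), Lss (-0.78), Cyp51 (0.72), Msmo1 (1.16), Hsd17b7 (0.63), Insig2 (0.35), Scd1 (2.25) and Abca1 (-2.48). The adjusted p of these 10 ran from 0.000449 (Fdps) to 0.0441 (Insig2).

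The difference between patterned gelatin and plastic in C2C12 cells, day 7 minus day 4, differed for Hmgcs1 (-0.50), Idi1 (-0.69), Cyp51 (-0.34), Hsd17b7 (-0.55), Sc5d (-0.74) and Srebf2 (0.45). The adjusted p of these 6 ran from 0.028 (Hmgcs1) to 0.0468 (Hsd17b7), all near the threshold. Each of the 6 calls was lost without some single library. Idi1, Cyp51 and Hsd17b7 appear in both sets.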

How the results depend on the processing

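No called result of a member changed sign under any alternative run. Of 189 called results, 2 lost their call with the replicate block, 1 with RLE factors, 29 with only the groups compared, 23 with limma on TPM, 15 with no filter on low counts and 0 with DESeq2. Of 1230 checks of a called result with 1 library left out, 160 lost the call, as did 2 of 113 results without the primary libraries numbered 3. Many of these checks share a fit and are not independent. The cause of these changes was not tested. Some fits held fewer libraries, and those of only the groups compared took their spread from those groups alone.

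Counts of called members that moved by more than 1.5 times were as follows. With limma on TPM there were 13 for plastic day 7 against day 4, 2 for patterned day 7 against day 4, 5 for day 4 patterned against plastic, 1 for day 7 unpatterned against plastic and 10 for the difference between days on patterned gelatin. TPM values moved the median of all genes by up to 0.161 (log2). With no filter on low counts there were 3, 1, 1 and 3 for patterned day 7 against day 4, day 4 patterned against plastic, day 7 unpatterned against plastic and the difference between days. With only the groups compared there were 0 for patterned day 7 against day 4, 11 and 13 for day 4 unpatterned and patterned against plastic, 0 for each gelatin against plastic at day 7, 6 for the difference between cells from day 0 to day 4 and 0 for the difference between days. DESeq2 gave 10 for that last difference and 1 for the difference between cells from day 4 to day 7, where the replicate block gave 2. Without the primary libraries numbered 3, 18 members differed between cells from day 0 to day 4.

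Leaving out 1 library gave 23 to 24 called members for plastic and 22 to 25 for patterned day 4 against day 0, 3 to 10 for plastic and 1 to 7 for patterned day 7 against day 4, 1 to 2 and 1 for day 4 unpatterned and patterned against plastic, 0 to 2 and 2 to 8 for these at day 7, and 0 to 2 for patterned against unpatterned at day 7. It gave 17 to 22 for primary day 4 against day 0, 27 to 29, 26 to 27 and 26 to 28 for primary against C2C12 cells at day 0, 4 and 7, 6 to 12 and 0 to 1 for the differences between cells, and 0 to 8 for the difference between days on patterned gelatin.

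In C2C12 cells the shared numbers did not pair the libraries (63 pairs, r from -0.35 to 0.422, median 0.0456). With the replicate block Srebf1 on patterned gelatin at day 4 against day 0 gained a call (adjusted p = 0.0406) and Hsd17b7 lost that of the difference between days (0.0513). Besides these and the blocked values given with the results, the block changed no other call of a member. Precision is limited by 3 libraries a group, with wide intervals for Scd1, Abca1 and Abcg1 in primary cells.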
